A study of Mus musculus and Homo sapiens with 18 samples.

Results

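Phc1-sg1, a single guide RNA (sgRNA) made for the Polycomb gene Phc1, gave a list of 2948 dCas9 peaks in the mouse genome, and 935 of these lay more than 100 kb from every peak of a second guide, Nanog-sg3. These 935 peaks are described here. They were chosen by measured peak positions: a Phc1-sg1 peak was kept when the gap between its edge and the nearest edge of a peak in either 20 ug Nanog-sg3 list of the stable cells exceeded 100 kb. They made up 31.7% of the Phc1-sg1 list (exact Clopper-Pearson 95% interval 30.04 to 33.4%) and were set beside the other 2013 Phc1-sg1 peaks. Because positions relative to Nanog-sg3 fixed the choice, these numbers are a description, with no test.

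The samples of this section were mouse V6.5 embryonic stem cells of the strain C57BL/6-129 that carried a stably integrated dCas9 gene in all groups, each transfected with 20 ug of 1 guide (Phc1-sg1, Phc1-sg2 or Nanog-sg3) and precipitated with an anti-HA antibody. There was 1 library for Phc1-sg1, 1 for Phc1-sg2 and 2 for Nanog-sg3, which gave 2948, 663, 5957 and 5862 peaks. Further lists came from the same line given Nanog-sg3 at 2, 0.2 or 0.02 ug or Nanog-sg2 at 10, 20 or 40 ug, and from wild-type V6.5 cells given 20 ug of Nanog-sg3 together with 20 ug of dCas9, as IP and as input without antibody. The labels do not say whether the stable line was 1 clone, nor whether the 2 Nanog-sg3 libraries came from separate cultures. The no-sgRNA IP and the Phc1-sg1 input of the stable cells were not analysed here, so the level of these 935 peaks without a guide is unknown, as is the read depth.

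dCas9 is Cas9 with its cutting activity removed. It is steered by the guide RNA, reads a short motif beside its target (the protospacer adjacent motif) and first pairs the guide bases next to that motif, so partly matching places can hold it as well as the intended one. Chromatin immunoprecipitation followed by sequencing (ChIP-seq) lists such places as peaks, and access to the DNA in open chromatin is known to favour them. Phc1 encodes a Polyhomeotic subunit of Polycomb repressive complex PRC1, and Nanog a homeobox factor of pluripotent cells. Positions are those of the deposited lists on mm9, counted from 1, and genes at the peaks were not analysed here.

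The position with the highest score in both Phc1 lists, taken here as the intended site, was not among the 935. The Phc1-sg1 peak there, at chromosome 6 between 122290175 and 122292163, scored 1463.16 and overlapped a Phc1-sg2 peak of 1606.98, but the nearest Nanog-sg3 peak lay 44.4 kb away, at 122244844 to 122245824, with a score of 69.82. None of the 935 peaks overlapped that position. At the threshold itself, the 2 peaks just beyond 100 kb were at chromosome 7, 103702534 to 103703521 (gap 100.02 kb, score 57.70) and chromosome 19, 11685631 to 11686534 (gap 100.35 kb, score 103.77). The 2 just short of it were at chromosome 4, 128710404 to 128711216 (gap 99.9 kb, score 71.64) and chromosome 8, 119153429 to 119155248 (gap 99.9 kb, score 214.20). The median gap of the 935 was 194.4 kb, with 10% under 112.8 kb and 10% over 559.5 kb, so many members were not far beyond the limit.

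The distant peaks were thinly spread over a large part of the genome. The span from the first to the last mouse peak of each of the 20 chromosomes came to 2561 Mb, of which 1620 Mb (63.2%) lay over 100 kb from Nanog-sg3. That span held 0.577 Phc1-sg1 peaks per Mb, against 2.14 per Mb in the remaining 942 Mb, a ratio of 3.70. Phc1-sg2, whose list the rule did not use, went the same way with a smaller ratio: 0.169 peaks per Mb beyond 100 kb and 0.414 per Mb within it, a ratio of 2.46. Of its 663 peaks 41.2% (37.4 to 45.0%) were distant, a larger share than for Phc1-sg1 although below the 63.2% of span. Nanog-sg2 gave 11 of 26 distant peaks at 20 ug (42.3%, 23.4 to 63.1%). Each of these guides had 1 library at its dose, so no test between guides was made, and the intervals cover counting error only.

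Within the distant set the density fell with each step away from Nanog-sg3. Between 100 and 200 kb there were 480 peaks, or 1.15 per Mb of that span (exact Poisson 95% interval 1.05 to 1.25). Between 200 and 500 kb there were 343 (0.609 per Mb, 0.546 to 0.677) and between 500 kb and 1 Mb 82 (0.239 per Mb, 0.190 to 0.296). Only 30 peaks lay beyond 1 Mb (0.102 per Mb, 0.0689 to 0.146), in 294 Mb of span. On the near side the values were 1.80 per Mb at 30 to 100 kb, 2.61 at 10 to 30 kb and 2.57 within 10 kb. The decline thus began on the near side of the 100 kb limit, beyond a level part within 30 kb. Phc1-sg2 peaks thinned out over the same bands, from 0.277 per Mb at 100 to 200 kb to 0.0817 per Mb beyond 1 Mb (24 peaks).

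**Figure D1:**
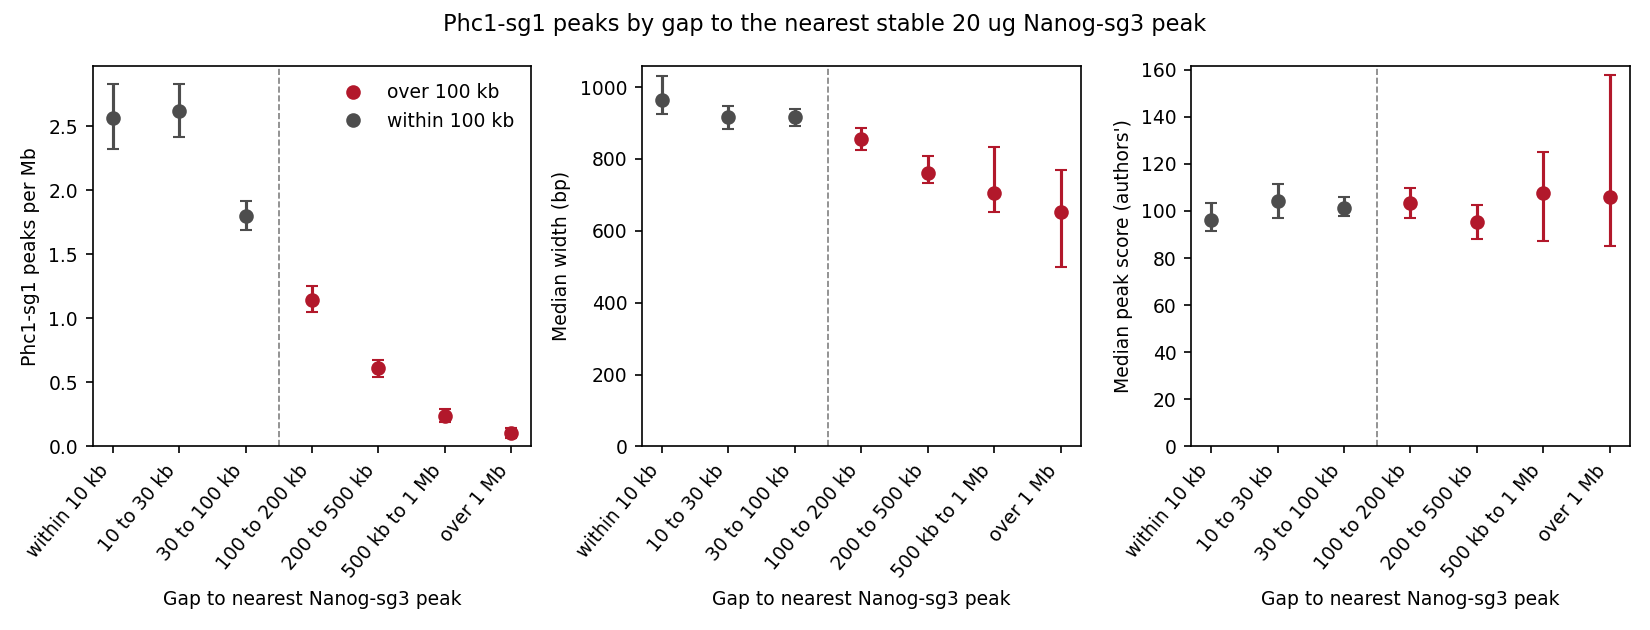
Phc1-sg1 peaks in 7 bands of gap to the nearest stable 20 ug Nanog-sg3 peak: peaks per Mb of mapped span with exact Poisson 95% intervals (left), median width in bp (middle) and median of the authors' score (right), the medians with binomial 95% intervals; red points are the 935 distant peaks, grey points the other 2013. Density falls from 1.15 to 0.102 per Mb and width from 856.5 to 651.5 bp across the red bands, while the median score stays between 95.3 and 107.8.

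The members farthest from Nanog-sg3 had scores near the middle of the list. The largest gap, 3292 kb, belonged to a peak on chromosome X between 144043204 and 144043735, with a score of 87.41. Another on chromosome X, between 88131243 and 88131863, had a gap of 2778 kb and a score of 100.36. The third, on chromosome 4 between 3535430 and 3536127 (gap 2756 kb, score 124.30), lay before the first Nanog-sg3 peak of its chromosome. None of these was wider than 698 bp.

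All 19 autosomes and chromosome X held distant peaks. Chromosome 1 had the most, 75 of its 231 Phc1-sg1 peaks, followed by chromosome 5 (68 of 202), chromosome 2 (61 of 203) and chromosome 4 (59 of 225). Chromosome 19 had the fewest, 18 of 77. The distant share ran from 23.4% on chromosome 19 (14.5 to 34.4%) to 38.6% on chromosome 13 (30.1 to 47.6%) among the autosomes, and these 2 intervals overlap. On each of the 20 chromosomes the distant share of peaks was below the distant share of span, and the density was lower on the distant side.

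Chromosome X stood apart. It held 45 Phc1-sg1 peaks, of which 25 were distant (55.6%, 40.0 to 70.4%), and 86.8% of its span lay over 100 kb from Nanog-sg3. Its distant span held 0.179 peaks per Mb, whereas the autosomes ranged from 0.436 on chromosome 3 to 0.786 on chromosome 9. The whole chromosome was sparse with Phc1-sg1 and with Nanog-sg3: it had 0.280 Phc1-sg1 peaks per Mb against 1.21 per Mb over the autosomes, and 205 Nanog-sg3 peaks in both lists together, or 1.28 per Mb, against 3.43 or more per Mb on each autosome. Without chromosome X, 910 of 2903 peaks were distant (31.3%).

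**Figure D2:**
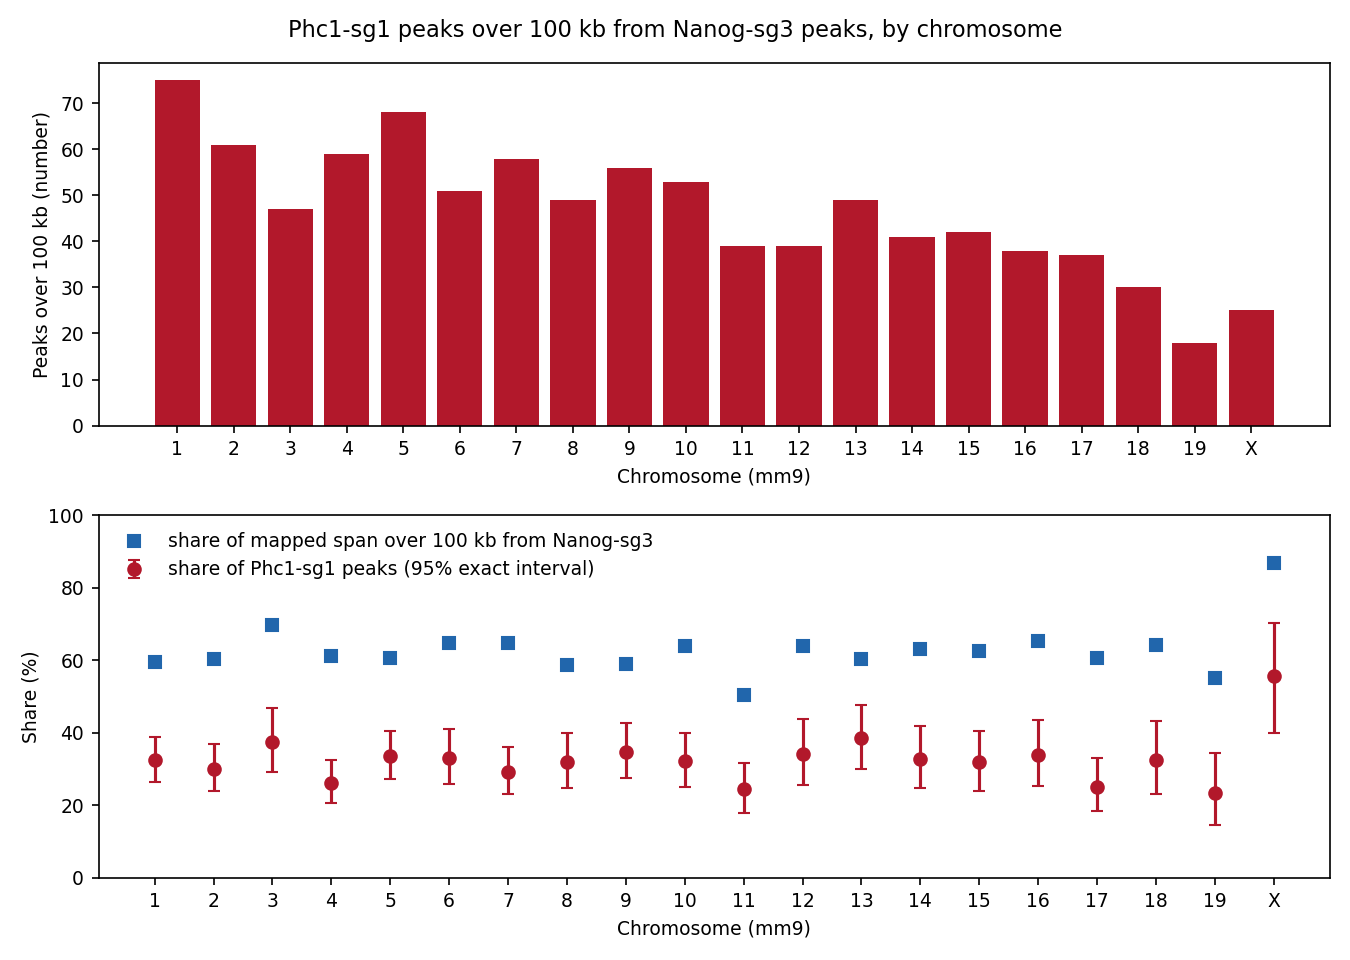
Distant Phc1-sg1 peaks on each chromosome: their number (top) and, below, their share of the chromosome's Phc1-sg1 peaks with exact 95% intervals (red) beside the share of the mapped span over 100 kb from Nanog-sg3 (blue). Red lies below blue on all 20 chromosomes, and chromosome X is highest for both, at 55.6% and 86.8%.

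The distant and the other peaks had nearly equal scores. The score is the authors' own number for each peak, with no name in the list, and it ran from 50.26 to 1268.88 among the members. Their median score was 100.33 (binomial 95% interval 95.37 to 104.27), against 100.81 (98.03 to 103.97) for the other Phc1-sg1 peaks, so the intervals overlap almost entirely. Of the members 13.4% scored 200 or more (11.3 to 15.7%) and so did 13.3% of the others (11.8 to 14.8%). The members supplied 31 of the 100 highest scores of the list and 160 of the 500 highest, close to their 31.7% of all peaks. When the list was cut into 4 equal groups by score, members made up 32.0%, 31.9%, 30.1% and 32.8% from the lowest to the highest.

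Distant peaks held ranks 3 to 7 by score in the whole Phc1-sg1 list. The strongest member, at chromosome 5 between 74720477 and 74720944, scored 1268.88 and was 468 bp wide, with the nearest Nanog-sg3 peak 308.8 kb off. The next was at chromosome 8 between 95103310 and 95103864, scored 1167.73 and spanned 555 bp. A peak at chromosome 1 between 159355661 and 159356679 (1100.95, 1019 bp) and one at chromosome 11 between 29450708 and 29451224 (1093.46, 517 bp) followed. The fifth, at chromosome 14 between 70097885 and 70099290 (1021.75, 1406 bp), lay close to the limit, its gap being 101.33 kb. The nearest Phc1-sg2 peak lay between 471.2 and 4419 kb from these 5 places. In all, 12 members scored 500 or more, on 8 chromosomes, and their widths ran from 458 to 1406 bp with a median of 605.5 bp.

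The distant peaks were narrower. Their median width was 805 bp (776 to 831), against 925 bp (909 to 941) for the other Phc1-sg1 peaks, a difference of 120 bp between medians whose intervals do not overlap. The middle 50% of the members ran from 620.5 to 1017.5 bp and that of the others from 713 to 1184 bp. Of the members 12.7% were under 500 bp (10.7 to 15.0%) and 2.89% over 2000 bp (1.91 to 4.17%), while among the others 7.50% were under 500 bp (6.39 to 8.74%) and 6.46% over 2000 bp (5.42 to 7.62%). Both ends of the distribution were thus displaced toward narrow peaks. All these peaks come from 1 library and are not replicates, so no test was made.

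The difference in width was present at each level of score. In the lowest of the 4 score groups the medians were 735.5 bp for members and 914 bp for the others, a difference of 178.5 bp. In the second it was 122 bp, in the third 65 bp (858 against 923 bp), and in the highest 135.5 bp (851.5 against 987 bp). The members' median was lower on 17 of the 20 chromosomes. The exceptions were chromosome 16 (959 against 886 bp), chromosome 6 (827 against 820 bp) and chromosome X (693 against 670.5 bp).

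Width also declined within the distant set. The median was 856.5 bp (824 to 886) at 100 to 200 kb from Nanog-sg3, 762 bp (732 to 808) at 200 to 500 kb, 704.5 bp (653 to 833) at 500 kb to 1 Mb and 651.5 bp (500 to 768) beyond 1 Mb. The last 2 bands hold 82 and 30 peaks and their intervals are wide. The score showed no such decline, with medians of 103.5, 95.3, 107.8 and 105.9 in the same order. The Phc1-sg2 list, which took no part in the choice, showed the same kind of difference: its 273 peaks beyond 100 kb of Nanog-sg3 had a median width of 646 bp (616 to 687) and its 390 peaks within 100 kb 760.5 bp (726 to 784). Both Phc1 comparisons use the same Nanog-sg3 lists to divide the peaks.

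Among the members the median width was larger in the higher of 4 score groups, but not among the very highest scores. Cut into 4 groups by their own scores, they had median widths of 739.5, 763.5, 846 and 855.5 bp from the lowest to the highest. The 12 members that scored 500 or more had a median width of 605.5 bp, below that of the lowest group. These few peaks ranged from 458 to 1406 bp, and no interval was computed for their median. The widest member, at chromosome 1 between 134365407 and 134370052, covered 4646 bp with a score of 482.29, which ranked 16 among the 935. The next 4 covered 3731, 3496, 3089 and 3072 bp with scores of 146.41, 93.05, 71.50 and 151.24. Their positions were, in the same order, 147457921 to 147461651 on chromosome 4, 165710022 to 165713517 on chromosome 2, 52637764 to 52640852 on chromosome 14 and 27369512 to 27372583 on chromosome 2. The narrowest member, at chromosome 13 between 42190017 and 42190276, covered 260 bp and scored 187.84, above 4 of the 5 widest. The other narrow ones were at chromosome 3 between 67545499 and 67545830 (332 bp, score 134.15) and chromosome 9 between 56630916 and 56631255 (340 bp, score 102.50).

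**Figure D3:**
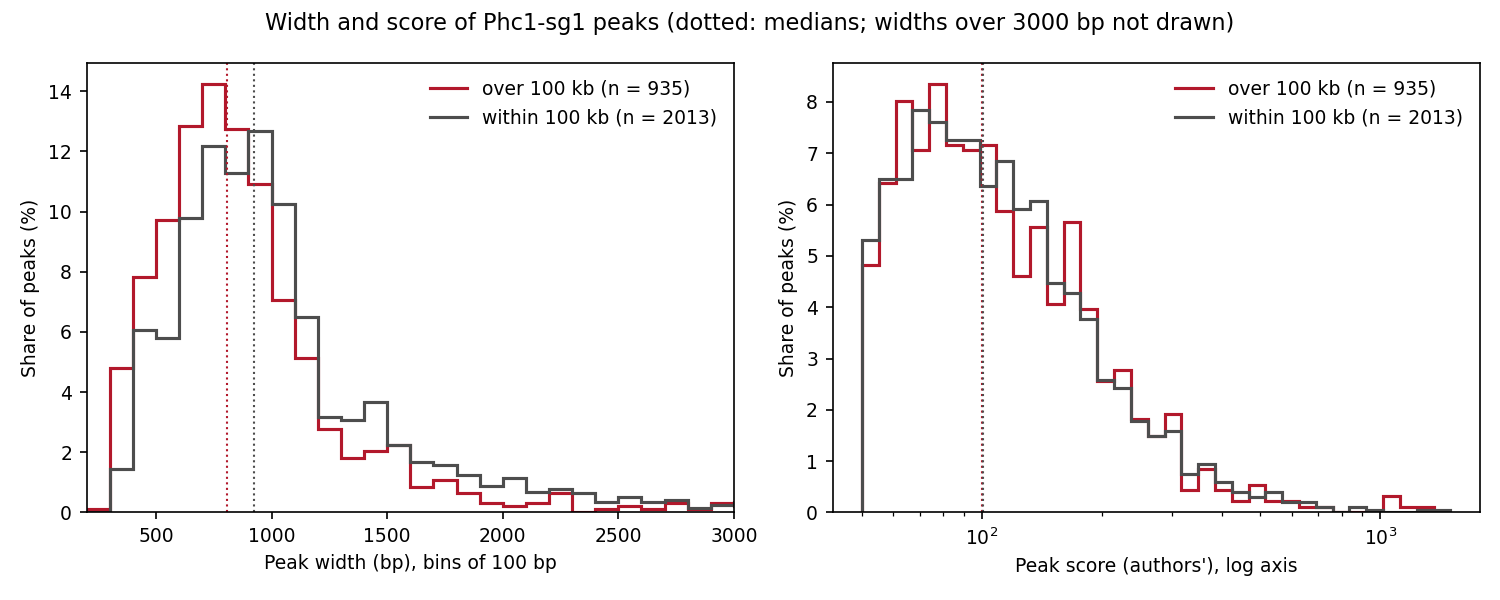
Width (left, bp) and the authors' score (right, log axis) of the 935 distant (red) and 2013 other (grey) Phc1-sg1 peaks, as shares of each set; dotted lines are medians. The width curve of the distant set lies to the left, with medians of 805 and 925 bp, while the score curves coincide, with medians of 100.33 and 100.81.

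Neighbouring members were usually far apart. Over 915 neighbouring pairs the median gap from one member to the next was 1375 kb (1175 to 1609), and the middle 50% ran from 346.7 to 3567 kb. The gap exceeded 1 Mb for 57.3% of pairs (54.0 to 60.5%) and 10 Mb for 5.36%, and was under 100 kb for 14.0% (11.8 to 16.4%) and under 10 kb for 2.40%. Between the other Phc1-sg1 peaks the median was 369.3 kb (331.7 to 405.1), with 24.99% of 1993 pairs under 100 kb. There are more of the other peaks in a smaller span, which by itself shortens their spacing. Counting Phc1-sg1 peaks of either set, the nearest one lay 217.1 kb from a member (median, 196.7 to 240.5) and 113.2 kb from another peak (106.3 to 120.5), and 30.3% of members had one within 100 kb against 45.9% of the others. For 53.2% of members that nearest peak was itself a member, which the rule favours, since it takes all peaks of a stretch away from Nanog-sg3.

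A minority of members came in small groups. Chained at gaps under 100 kb, 228 of the 935 fell into 100 groups of 2 or more, of which 21 had 3 or more and none more than 4. The tightest was on chromosome 4 between 147456183 and 147462836, where 3 members were separated by 43 and 10 bp and together covered 6654 bp. Their scores were 67.68, 146.41 and 197.58. The next closest pair was on chromosome 13, at 47061311 to 47062351 and 47062528 to 47063124, with 176 bp between peaks that scored 53.66 and 50.48. Apart from these 5 peaks no members lay within 500 bp of each other.

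The stretch of 1 Mb with the most members was on chromosome 5, where 8 fell between 104497698 and 105417935. A group of 4 stood between 104497698 and 104538915, with scores of 92.67, 176.61, 173.84 and 176.12, and the other 4 scored between 68.34 and 134.01. No other Phc1-sg1 peak lay in that stretch, and the largest gap to a Nanog-sg3 peak was 557.6 kb. The runner-up, on chromosome 16 between 21979169 and 22920693, held 7 members with scores of 61.05 to 194.09 and 1 Phc1-sg1 peak that was not a member, at 22149817 to 22151266, which lay 11.5 kb from Nanog-sg3. Scores in both groups were ordinary for the list. The distant span as a whole consisted of 2834 separate stretches, of which 669 held a member: 467 held 1, 158 held 2, 31 held 3 and 13 held 4 or more. Stretches with a member had a median length of 464.7 kb and those without 195.7 kb. A longer stretch has more room for a peak, which by itself favours such a difference.

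Distances to the second Phc1 guide were long. The median gap from a member to the nearest Phc1-sg2 peak was 1120 kb (1009 to 1244), against 923.8 kb (852.1 to 1008) for the other Phc1-sg1 peaks. With a minimum score of 100 in the Phc1-sg1 list alone, the members' median was 1115 kb and 47.2% lay within 1 Mb. With that minimum in the Phc1-sg1, Phc1-sg2 and Nanog-sg3 lists, the values were 2394 kb and 29.4%. The latter setting gives a different set of 691 members and fewer Phc1-sg2 peaks, which by itself lengthens such gaps. The other Phc1-sg1 peaks were not measured under it. With all peaks, 46.4% of the members (434 of 935, 43.2 to 49.7%), 52.0% of the others (49.8 to 54.2%) and 50.2% of all Phc1-sg1 peaks lay within 1 Mb of Phc1-sg2. Within 100 kb lay 8.13% of the members (76 of 935, 6.46 to 10.1%) and 9.59% of the others (8.34 to 10.96%), with 9.12% over the whole list. The members' share within 100 kb is thus not distinguishable from that of the whole list by these intervals. For scale, 3.39% of the distant span lay within 100 kb of a Phc1-sg2 peak and 31.7% within 1 Mb, and for the near span the shares were 7.69% and 47.4%. Both sets of Phc1-sg1 peaks were thus near Phc1-sg2 more often than the span they lay in. The lists share the cell line and dose, and all Phc1-sg1 peaks come from 1 library and all Phc1-sg2 peaks from another.

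Closeness to Phc1-sg2 fell off in the outermost members. Of those 100 to 200 kb from Nanog-sg3, 52.1% had a Phc1-sg2 peak within 1 Mb, close to the 52.4% at 30 to 100 kb. The share was 44.9% at 200 to 500 kb, 32.9% at 500 kb to 1 Mb and 10.0% of the 30 peaks beyond 1 Mb. Phc1-sg2 peaks themselves thinned over these bands, from 0.277 to 0.0817 per Mb, which by itself lowers such shares. How much of each band's span lay within 1 Mb of Phc1-sg2 was not measured. By chromosome the median gap to Phc1-sg2 ran from 658.8 kb on chromosome 11, which has 67 Phc1-sg2 peaks, to 4079 kb on chromosome X, which has 16. More than 5 Mb from Phc1-sg2 lay 9.20% of the members and 8.49% of the others (7.31 to 9.80%), and the longest gap was 23891 kb.

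**Figure D4:**
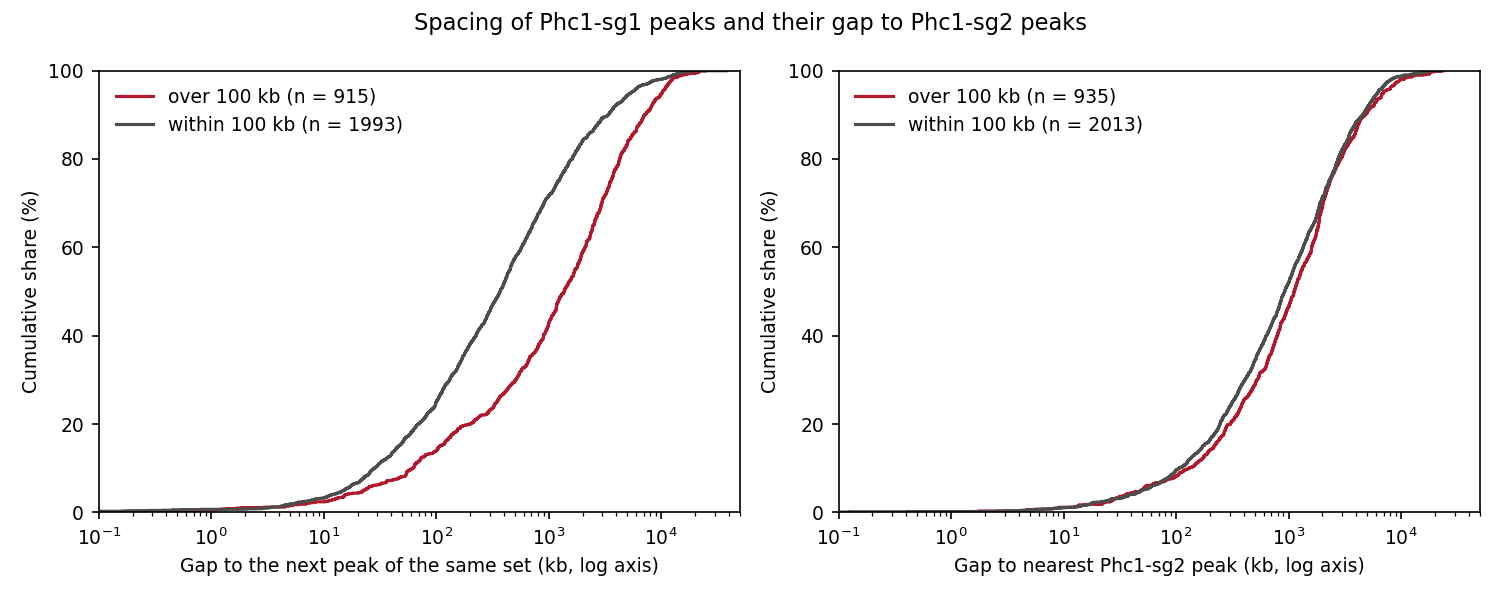
Cumulative shares of gaps on a log axis in kb, from 0.1 kb, for the 935 distant (red) and 2013 other (grey) Phc1-sg1 peaks: the gap to the next peak of the same set (left) and to the nearest Phc1-sg2 peak (right). The curves are far apart on the left, with medians of 1375 and 369.3 kb, and close together on the right, with medians of 1120 and 923.8 kb.

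No distant peak overlapped a Phc1-sg2 peak (0 of 935, upper limit 0.394% by the exact interval). Of the other 2013, 2 did (0.0994%, 0.0120 to 0.358%), one of them at the intended site. These 2 were the only overlaps among all 2948 Phc1-sg1 peaks. The members' share is thus not distinguishable from that of the others by these intervals. The closest approach was on chromosome X, where a member between 12808497 and 12809423 (score 66.98) lay 752 bp from a Phc1-sg2 peak between 12806860 and 12807744 (score 188.36). On chromosome 10 a member between 67374291 and 67375839 (55.86) lay 1408 bp from Phc1-sg2, and on chromosome 1 one between 53802439 and 53803419 (84.41) lay 1741 bp away. The next were on chromosome 15 between 102522387 and 102523908 (66.54, 4378 bp) and chromosome 7 between 6209624 and 6212321 (208.35, 4720 bp). Of these 5 members 4 scored below the members' median, and 11 members in all came within 10 kb of Phc1-sg2 (1.18%, against 1.04% of the others).

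Lists that the rule did not use were then examined at the same positions. In wild-type cells given Nanog-sg3 and dCas9 together, a list of 16119 peaks, 537 members had a peak within 100 kb (57.4%, 54.2 to 60.6%), against 95.7% of the other Phc1-sg1 peaks and 83.5% of the whole list. Of the distant span 25.9% lay within 100 kb of these transient peaks, so members were near them more often than their span was. The guide is the one used in the rule, and this list is not independent of it. The 398 members that were over 100 kb from the transient peaks too had a median width of 737 bp (705 to 784), and the remaining 537 had 848 bp (812 to 872), whereas the median scores were 98.07 and 102.49.

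Actual overlap with Nanog guides was rare. With the transient list 3 members shared bases (0.321%, against 0.509% of the whole Phc1-sg1 list): on chromosome 15 between 26824848 and 26825926 (684 bp in common), and on chromosome 1 between 90911490 and 90912842 (261 bp) and between 93075361 and 93076669 (339 bp). Their Phc1-sg1 scores were 95.37, 91.66 and 72.80 and the transient scores 71.53, 84.76 and 79.34. With Nanog-sg3 at 2 ug 1 member shared bases (0.107%, against 0.102% of the list), on chromosome 17 between 32420010 and 32422306, with a score of 112.29 for Phc1-sg1 and 149.52 for Nanog-sg3. A 2 ug peak lay within 100 kb of 83 members (8.88%, against 37.4% of the list). At 0.2 and 0.02 ug none of the 2948 Phc1-sg1 peaks overlapped a peak. Within 100 kb were 5 members at 0.2 ug (0.535%, against 2.88% of the list) and 13 at 0.02 ug (1.39%, against 2.20%). The lists at 2, 0.2 and 0.02 ug come from the guide and cell line of the rule and are not independent of it. The rule by itself favours low shares of members within 100 kb of peaks in these lists.

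Nanog-sg2 came near members at 2 places, and these were the same at 10, 20 and 40 ug. On chromosome 1 a member between 59318059 and 59319060 (score 66.31) lay 11.5, 11.2 and 11.6 kb from the Nanog-sg2 peak in that order of dose. On chromosome 9 a member between 115997029 and 115997728 (score 247.57) lay 62.2, 62.5 and 62.5 kb away. Of the other Phc1-sg1 peaks 8 were within 100 kb of Nanog-sg2 at any dose (0.397%, against 0.214% of members). At 20 ug the share was 0.214% of members and 0.271% of the whole Phc1-sg1 list. The Nanog-sg2 lists held only 20, 26 and 26 peaks at 10, 20 and 40 ug. The list for the input of the transient arm held 3 peaks, none of them within 100 kb of a member. Of all 2948 Phc1-sg1 peaks 1 lay within 100 kb of them.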

How the data were processed

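Peak lists of 12 mouse libraries were used as deposited. The submitters' processing notes name Bowtie and the build mm9, and peak names begin with MACS; its version, control, threshold and filter are not given here by any source. Each peak carries a score, the authors' deposited value, used only within a list. Starts were taken to count from 0. The 2 Nanog-sg3 libraries at 20 ug were pooled as neighbours. A gap is the number of bases between peak edges, overlap is at least 1 bp, and spacing runs from the end of a peak to the start of the next of its set. The mapped span of a chromosome runs from the first to the last peak of any mouse list, since no mm9 genome was used here; for the same reason no sequence or gene is given. Medians carry binomial order-statistic, shares exact Clopper-Pearson and densities exact Poisson intervals (95%), which treat peaks as independent and cover counting error only; depth is unknown. No test was made, as Phc1-sg1 had 1 library. The members, bands and comparisons were chosen with earlier results of these data known.

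Named positions were the peak with the highest score in both Phc1 lists, the 5 highest scores, 5 widest, 3 narrowest, 3 farthest from Nanog-sg3, 3 closest pairs, 5 nearest to Phc1-sg2, overlaps with other lists, 2 peaks on each side of the threshold and the densest 1 Mb; the stretch on chromosome 16 and the members near Nanog-sg2 were chosen after their values were seen. Distances, overlap, span and median intervals were tested on simulated data. Alternatives were gap limits of 50 and 200 kb, each Nanog-sg3 library alone, a minimum score of 100, centre distances, merging within 500 bp, the transient list as further neighbours, and leaving out chromosome 6 or X. Python 3.11.15, pandas 2.3.3, numpy 2.4.6 and SciPy 1.17.1 were used.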

Additional observations from a re-analysis of the deposited data

How the results depend on the processing

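The 935 peaks depend on the gap limit and on the Nanog-sg3 lists. With a limit of 50 kb there were 1501 (50.9%), with a median width of 840 bp and spacing of 752.8 kb. With 200 kb there were 455 (15.4%), with 751 bp, 3276 kb, a median of 1330 kb to Phc1-sg2 and 40.4% within 1 Mb of it. Using only the second or only the first Nanog-sg3 library gave 1224 or 1247 peaks (41.5 or 42.3%), a median width of 820.5 or 828 bp and a spacing of 1025 or 970.7 kb. Adding the transient Nanog-sg3 list left 398 (13.5%). With a score of at least 100 in the Phc1-sg1 list there were 472 (31.6% of the Phc1-sg1 peaks so kept). Their medians were 851 bp, a score of 153.91, a spacing of 2817 kb and 1115 kb to Phc1-sg2, with 47.2% within 1 Mb. With that minimum in the Phc1-sg1, Phc1-sg2 and Nanog-sg3 lists there were 691 (46.3% of the Phc1-sg1 peaks so kept). Their medians were 865 bp, a score of 154.67, a spacing of 1780 kb and 2394 kb to Phc1-sg2, with 29.4% within 1 Mb. Centre distances, merging within 500 bp and leaving out chromosome 6 or X kept the medians, shares and width difference they were run on inside the main intervals. The number of members has no interval. It was 945 with centre distances, 932 after merging and 910 without chromosome X. The width difference between the other peaks and the members was 93 to 163 bp over the alternatives run for it, all chosen for this result after the data were seen, and 94 to 111 bp with 1 Nanog-sg3 library. No paired analysis was possible because Phc1-sg1 and Phc1-sg2 held 1 library each. Precision is limited by unknown depth, a filter of unstated rule and a single Phc1-sg1 library.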
